A study of Mus musculus with 6 samples.

Results

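The genes described here encode the mitochondrial respiratory chain and ATP synthase. They were the 111 rows, of 21899 in the expression table, whose symbol starts with mt-Nd, mt-Co, mt-Cyt, mt-Atp, Nduf, Uqcr or Atp5, is Sdha, Sdhb, Sdhc, Sdhd or Cyc1, or is Cox followed by a digit from 4 to 8. The rule used symbols and no measured value. It took 98 nuclear rows and all 13 protein genes of the mitochondrial genome. By complex, these were 37 nuclear and 7 mitochondrial genes of complex I, 4 nuclear genes of complex II, 9 nuclear and 1 mitochondrial gene of complex III, 19 nuclear and 3 mitochondrial genes of complex IV, and 18 nuclear and 2 mitochondrial genes of complex V. The prefix Nduf also took 8 assembly factors of complex I (Ndufaf1 to Ndufaf8) and Ndufb11b, and the prefix Cox took Cox7a2l, a factor that joins complexes III and IV, and the pseudogene Cox5b-ps.

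RNA was sequenced from 6 tumors of Lewis lung carcinoma, a transplantable mouse lung tumor. The cells carried luciferase and were grown under the skin of male C57BL/6 mice. There were 3 groups of 2 tumors, all of them irradiated with a laser, so none of the groups was free of light. The Laser group received no photosensitizer. The PC-La group received phycocyanin, a light-absorbing protein of cyanobacteria that serves as photosensitizer in photodynamic therapy (PDT), and in the SePC-La group the phycocyanin was enriched in selenium. Per the labels the light had a wavelength of 620 nm and was given for 10 min at 4 h after an injection, with injections every 5 days. The labels number the tumors 1 and 2 in each group but do not say that they came from separate animals, so a p-value measures the spread between these samples. In bulk tumors, fewer cells of a type and less RNA per cell cannot be told apart.

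The respiratory chain passes electrons from NADH (complex I) or succinate (complex II) through complex III and cytochrome c to oxygen at complex IV. The protons pumped on the way drive ATP synthase, complex V. The mitochondrial genome encodes a few core subunits of complexes I, III, IV and V, which are transcribed inside the organelle, whereas complex II and all other subunits are made from nuclear genes and imported. Both sets are needed in the same assembled complexes.

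Levels are given as FPKM, a fragment number scaled by exon length and by library size. The level of a gene therefore depends on the merged exon length used for it, and the counts that moved under another scaling between samples are given beside the results. The libraries held between 14447792 and 17649489 reads counted on genes. The limma test was run on log2(FPKM + 1) over the 10853 genes whose mean reached 1 FPKM, and a log2 fold change below is a difference on that scale, which understates the change of low genes. Of the 111 rows, 102 passed this filter, 90 nuclear and 12 mitochondrial. The 9 others were mt-Atp8, the tissue isoforms Cox6b2, Cox7a1, Cox7b2, Cox8b and Cox8c, Ndufb11b, and the 2 rows listed as Atp5o, whose exons overlap. A gene is said to be called where its limma p, unadjusted, was under 0.05. In the reported fit of all 6 samples by limma, no gene of the whole table had a Benjamini-Hochberg adjusted p under 0.05 in any comparison. The same held by voom on recovered reads, and some other settings gave genes under it, as the closing section states. Called in the reported fit were 627 genes (5.78%) in PC-La against Laser, 1318 (12.1%) in SePC-La against Laser and 2637 (24.3%) in SePC-La against PC-La. The tissue is labelled as lung cancer, and 8 markers of normal lung epithelium summed to only 2.08 to 3.38 FPKM per tumor.

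Nuclear genes of complex II had the highest middle level, with a median of the gene means of 51.0 FPKM, followed by complex III (45.9 FPKM), complex V (35.3 FPKM), complex IV (32.6 FPKM) and complex I (23.2 FPKM). The assembly factors of complex I were lower, with a median of 6.81 FPKM. These medians rest on 4 to 37 genes with wide ranges, so their order is a description. In complex V, Atp5b, which encodes the catalytic beta subunit, had the highest mean of any nuclear member (322 FPKM), and Cox8a of complex IV came next (277 FPKM). Sdhd, a membrane anchor, was the highest gene of complex II (107 FPKM), and Uqcr10 was the highest nuclear gene of complex III (93.4 FPKM). The lowest nuclear subunit of complex I was Ndufb2, at 1.24 FPKM over a merged exon length of 5628 bases.

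Complex IV has subunits with a common form and a second form known from muscle, heart, testis or lung, and all tumors used the common forms. Cox4i1 averaged 76.7 FPKM against 1.12 FPKM for Cox4i2, the form known from lung and hypoxic cells. Cox6a1 averaged 174 FPKM against 1.44 FPKM for its muscle form Cox6a2, and Cox7a2 averaged 65.8 FPKM against 0.623 FPKM for its muscle form Cox7a1. Cox6b1 averaged 95.8 FPKM, and the testis form Cox6b2 had between 0 and 3 reads per tumor. Cox8a averaged 277 FPKM, whereas Cox8b had 1 read in a single Laser tumor and Cox8c had none. Cox7b averaged 60.2 FPKM, and its relative Cox7b2 was listed at 0 in all 6 tumors. Ndufa4, a complex IV subunit despite its name, averaged 62.0 FPKM, and the hypoxia-linked Ndufa4l2 averaged 1.53 FPKM with between 14 and 57 reads per tumor.

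Mitochondrial genes took 2.50% to 3.99% of all counted reads, and nuclear members took 0.746% to 0.935%. The level of the 13 mitochondrial genes fell into separate ranges. mt-Co1, the catalytic subunit of complex IV, was the highest at a mean of 10871 FPKM, followed by mt-Cytb of complex III (4076 FPKM) and the complex I gene mt-Nd1 (2831 FPKM). The genes mt-Co2, mt-Co3, mt-Atp6, mt-Nd3 and mt-Nd4l, in contrast, had means between 1.77 and 98.0 FPKM, although the proteins of mt-Co1, mt-Co2 and mt-Co3 form the core of the same enzyme. mt-Atp8 had between 0 and 4 reads per tumor.

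Apart from mt-Atp8, these low genes were those with near-identical copies of nearly their full length elsewhere in the annotated genome. On chromosome 1 of GRCm38, GENCODE M21 lists 7 pseudogenes within chr1:24611535-24616197, on the minus strand, a block of 4663 bases that copies a stretch of the mitochondrial genome. Over the aligned bases, the copies of mt-Co2, mt-Atp6, mt-Co3, mt-Nd4l and mt-Nd4 were identical to the mitochondrial gene, that of mt-Nd3 differed at 1 of 345 bases, and that of mt-Co1 covered 492 bases and differed at 6. Of the 100-base windows of mt-Co2, mt-Co3, mt-Atp6, mt-Nd3 and mt-Nd4l, 97.6% to 99.9% occurred unchanged in another annotated gene. The share was 60.8% for mt-Nd4, 30.8% for mt-Co1, 3.20% for mt-Nd2 and 0 for mt-Nd1, mt-Nd5, mt-Nd6 and mt-Cytb. The 7 genes under 95%, leaving out mt-Atp8, had means between 596 and 10871 FPKM. mt-Atp8, which is 204 bases long, lies between mt-Co2 and mt-Atp6. It has no annotated copy of its own, but the copies of its neighbors lie 233 bases apart on chromosome 1, against 230 bases between mt-Co2 and mt-Atp6. The block pseudogenes are not rows of the table. Whether reads that match 2 places were left out of the counts was not tested. The levels of mt-Atp8 and of the 5 low genes with copies are therefore uncertain, and those of mt-Nd4 and mt-Co1 in part. Both pairs are printed to show how alike the copies are, with the bases that differ in capitals, each in the direction of the gene.
mt-Co1 (chrM:6381-6680, plus strand): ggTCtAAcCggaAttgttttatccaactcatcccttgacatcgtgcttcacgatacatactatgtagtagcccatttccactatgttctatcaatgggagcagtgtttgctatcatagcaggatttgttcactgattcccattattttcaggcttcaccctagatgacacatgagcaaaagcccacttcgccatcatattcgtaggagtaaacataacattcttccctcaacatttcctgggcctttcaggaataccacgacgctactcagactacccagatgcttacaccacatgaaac
Gm29216 (chr1:24615898-24616197, minus strand): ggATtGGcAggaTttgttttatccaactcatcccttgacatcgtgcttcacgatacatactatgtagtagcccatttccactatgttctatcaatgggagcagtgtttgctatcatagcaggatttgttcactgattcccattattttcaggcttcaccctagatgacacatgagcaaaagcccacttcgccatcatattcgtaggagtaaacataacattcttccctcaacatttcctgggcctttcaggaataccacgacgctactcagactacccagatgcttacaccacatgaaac
mt-Nd3 (chrM:9459-9758, plus strand): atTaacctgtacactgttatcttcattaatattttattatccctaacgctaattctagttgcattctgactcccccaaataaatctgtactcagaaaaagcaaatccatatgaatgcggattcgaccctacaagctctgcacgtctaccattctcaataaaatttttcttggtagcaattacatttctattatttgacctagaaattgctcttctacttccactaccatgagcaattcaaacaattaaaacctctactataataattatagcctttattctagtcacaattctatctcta
Gm28438 (chr1:24612820-24613119, minus strand): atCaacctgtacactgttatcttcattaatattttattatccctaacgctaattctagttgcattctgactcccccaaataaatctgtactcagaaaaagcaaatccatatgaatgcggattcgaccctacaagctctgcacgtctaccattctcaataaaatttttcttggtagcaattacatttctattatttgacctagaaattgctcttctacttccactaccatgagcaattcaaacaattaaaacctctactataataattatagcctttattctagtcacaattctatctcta
The differences between mt-Co1 and its copy all lie in the first bases of the copy, and the rest of the stretch is the same.

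**Figure D1:**
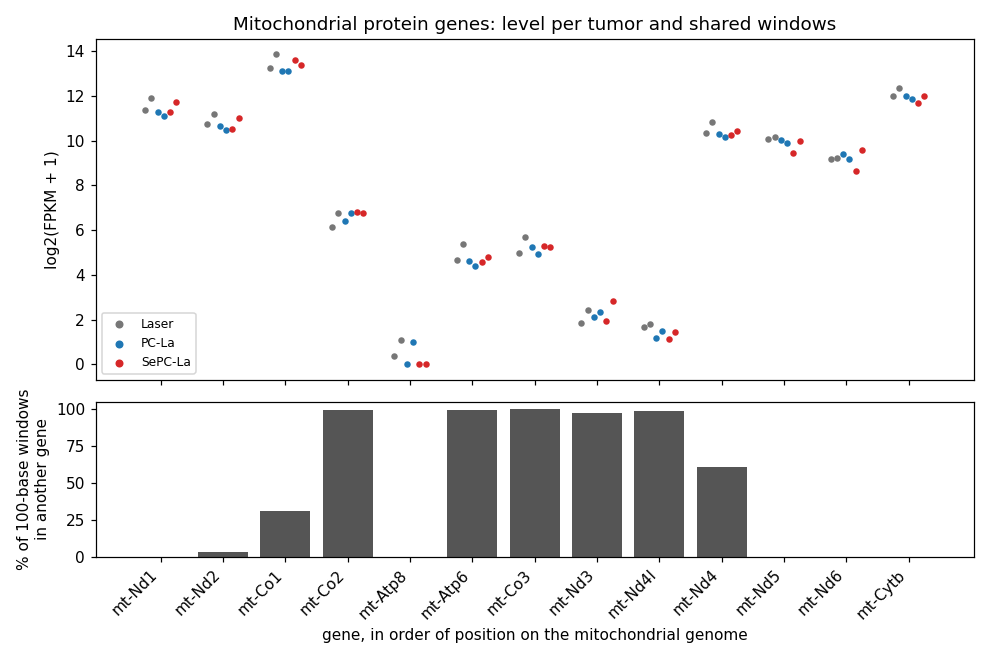
Upper panel, log2(FPKM + 1) of the 13 mitochondrial protein genes in each of the 6 tumors (1 point per tumor, colored by group). Lower panel, percent of the 100-base windows of each gene that occur unchanged in another annotated gene. The 5 genes with bars over 95% sit between 1.77 and 98.0 FPKM, and all others except mt-Atp8 have means of 596 FPKM or more.

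PC-La against Laser asks what phycocyanin adds to light alone. The most marked contrast within the chain was between the genomes: mitochondrial genes tended to be lower in PC-La and nuclear genes leaned slightly higher. No mitochondrial gene was called, but in 8 of the 12 tested both PC-La tumors lay below both Laser tumors (background over all tested genes 21.6%), and in none did both lie above (20.4%). The 12 genes moved together, all 12 being above their mean in the second Laser tumor. They are thus not separate observations, and how far genes of the background moved together was not tested. The 8 include mt-Nd4l and mt-Atp6, whose levels are uncertain as given above. The median log2 fold change of the 12 genes was -0.31, against -0.0006 over all tested genes and 0.05 over the 90 nuclear members. mt-Co1 was listed at 9749 and 14754 FPKM in Laser and at 8699 and 8710 FPKM in PC-La (log2 fold change -0.46, SE 0.22, limma adjusted p = 0.75). mt-Atp6, the proton channel subunit of ATP synthase, was listed at 24.2 and 40.5 FPKM in Laser and at 23.7 and 20.2 FPKM in PC-La (log2 fold change -0.50, limma adjusted p = 0.75). In both genes the second Laser tumor stood well above the other 3 and the groups did not overlap. mt-Cytb was listed at 4095 and 5196 FPKM in Laser and at 4063 and 3714 FPKM in PC-La. mt-Co2, mt-Nd3 and mt-Nd6 had log2 fold changes above 0, between 0.07 and 0.14. mt-Nd6 is the only protein gene of the light strand, and since the counting is not stated to use strand, its reads cannot be told apart from antisense reads.

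The mitochondrial difference rested on the second Laser tumor. There all 12 tested genes were above their 6-tumor mean, 9 of them were at their highest of the 6 tumors, and the median deviation from the gene mean was 0.40 on the log2 scale, against -0.07 in the first Laser tumor. Without the second Laser tumor the median log2 fold change of the mitochondrial genes in PC-La was -0.10, and without the first it was -0.53. The same tumor held the most RNA of skeletal muscle, a tissue rich in mitochondria: 15 muscle markers summed to 184 FPKM there, to 26.9 FPKM in the first Laser tumor, and to 1.77 to 7.88 FPKM in the 4 others. Of these 15 markers, 9 passed the filter, some of them only through the second Laser tumor. Examples are Actn3 (9.30 FPKM there, mean 1.74 FPKM) and Ckm (7.16 FPKM, mean 1.36 FPKM). The filter thus favored markers that were high in Laser. All 9 lay lower in both PC-La tumors and in both SePC-La tumors than in either Laser tumor (background 6.25%). Of the markers under the filter, Pvalb and Myh2 had the same order, and Casq1, Ckmt2, Mb and Tnnc2 did not. The part of muscle RNA in the mitochondrial levels was not tested.

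Among the nuclear members, 1 was called higher in PC-La and 1 lower, 1.11% each of 90 (background 3.38% higher and 2.4% lower). Of the 90, 62 (68.9%) had a log2 fold change above 0 (background 49.9%). In 27 (30%) both PC-La tumors lay above both Laser tumors and in 7 (7.78%) below (background 20.4% and 21.6%). Ndufa13, an accessory subunit of complex I that is also known as a cell death regulator, was listed at 30.4 and 27.3 FPKM in Laser and at 45.3 and 39.1 FPKM in PC-La, with no overlap (log2 fold change 0.53, SE 0.16, limma adjusted p = 0.75). The antisense gene Tssk6 shares 29.98% of its exon bases, and reads of the pair cannot be told apart. The other call was Cox6a2, the muscle form, listed at 1.03 and 4.83 FPKM in Laser and at 0.282 and 0.590 FPKM in PC-La, from 3 to 58 reads per tumor (log2 fold change -1.27, SE 0.49, limma adjusted p = 0.75). It was the only member with an absolute log2 fold change over 1 at p under 0.05, in a comparison where 1.29% of all genes met that criterion. Without the second Laser tumor, which holds 58 of its reads and the muscle markers above, its log2 fold change was -0.51 and it was no longer called. Complex II, the only complex without mitochondrial genes, had a median log2 fold change of -0.02, and none of its 4 genes was called.

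SePC-La against Laser asks the same of selenium-enriched phycocyanin. Here the nuclear medians of all complexes were above 0, and the mitochondrial median was not. The nuclear shift rested mostly on the second SePC-La tumor, with a median deviation from the gene mean of 0.24, against -0.03 in the first. Without the second tumor the median log2 fold change was 0.05 over nuclear members and -0.02 in complex II. Of the 90 nuclear members tested, 83 had a log2 fold change above 0, where 40.2% of all tested genes did. In 40 of them (44.4%) both SePC-La tumors lay above both Laser tumors and in none below, against a background of 15.0% and 25.6%. The median log2 fold change was 0.18 over nuclear members and -0.06 over all tested genes. It was 0.18 in complex I, 0.10 in complex II, 0.23 in complex III, 0.20 in complex IV, 0.17 in complex V and 0.13 among the assembly factors. Among nuclear members 10 were called, all higher (11.1%, background 4.9% higher and 7.24% lower). With median-ratio scaling between libraries, which moved the background to 7.48% higher and 4.23% lower, 21 were called, all higher. No member reached an absolute log2 fold change over 1 (background 0.682%), and the smallest adjusted p was 0.38.

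**Figure D2:**
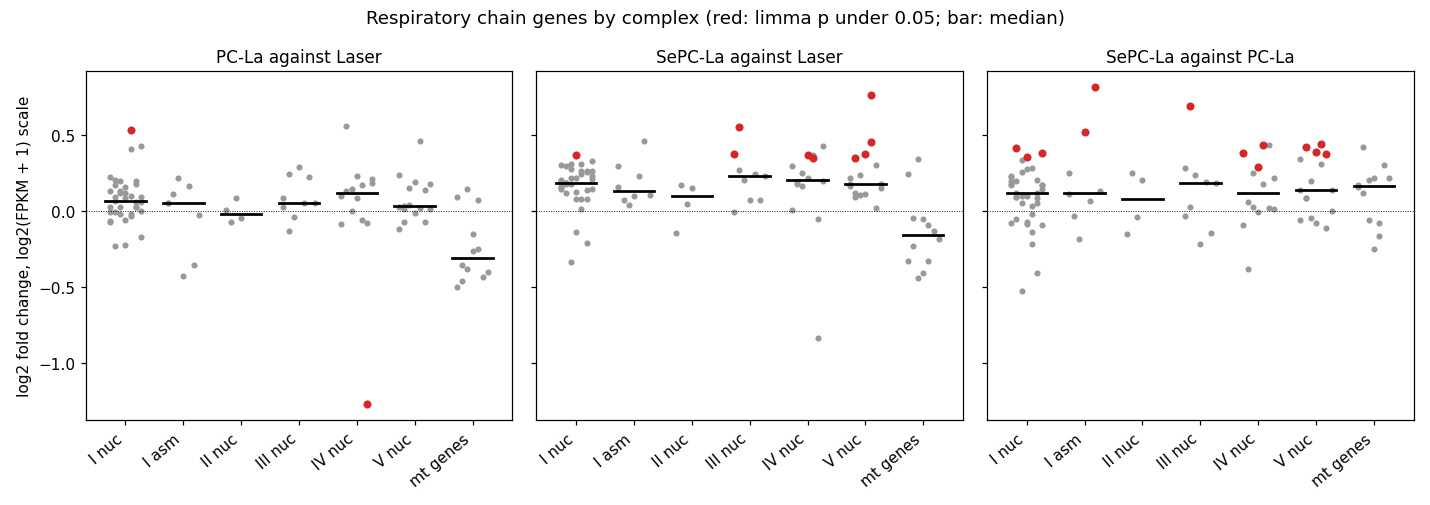
Log2 fold change, on the log2(FPKM + 1) scale, of each tested member except Cox7a2l and Cox5b-ps in the 3 comparisons, grouped as nuclear genes of complexes I to V (nuc), assembly factors of complex I (asm) and mitochondrial genes (mt). Points are genes, red where the limma p was under 0.05, and bars are medians. In SePC-La against Laser the nuclear medians lie between 0.10 and 0.23 and the mitochondrial median at -0.16. This nuclear shift rested mostly on the second SePC-La tumor.

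Complex V held 4 of the 10 calls, among 16 nuclear genes tested (25%, background 4.9% higher). All 16 had a log2 fold change above 0 (background 40.2%). Atp5k, which encodes the small membrane subunit e, was listed at 12.5 and 6.90 FPKM in Laser and at 15.1 and 18.0 FPKM in SePC-La (log2 fold change 0.76, SE 0.25, limma adjusted p = 0.38). The spread of the Laser tumors was wide here, and without the second of them the log2 fold change was 0.37, no longer a call. Atp5e, the epsilon subunit of the central stalk, was listed at 25.4 and 23.8 FPKM in Laser, 27.8 and 22.3 FPKM in PC-La, and 32.0 and 36.2 FPKM in SePC-La (0.45, SE 0.15, limma adjusted p = 0.38 against Laser). Atp5d, the delta subunit beside it, was listed at 75.8 and 82.2 FPKM in Laser, 80.9 and 75.6 FPKM in PC-La, and 103 and 102 FPKM in SePC-La (0.37, SE 0.12, limma adjusted p = 0.38 against Laser). Atp5b was listed at 277 and 324 FPKM in Laser, 290 and 279 FPKM in PC-La, and 391 and 370 FPKM in SePC-La (0.35, SE 0.13, limma adjusted p = 0.4 against Laser). In all 4 genes both SePC-La tumors were above the 4 others, and for Atp5b and Atp5d the first SePC-La tumor was the highest of all.

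Complex III held 2 calls among 9 nuclear genes (22.2%, background 4.9% higher). Uqcrq, a small subunit of the cytochrome bc1 complex, was listed at 30.2 and 40.9 FPKM in Laser, 30.7 and 33.3 FPKM in PC-La, and 54.2 and 49.9 FPKM in SePC-La (log2 fold change against Laser 0.55, SE 0.17, limma adjusted p = 0.38). Cyc1, which encodes cytochrome c1, was listed at 50.7 and 48.9 FPKM in Laser, 50.6 and 55.3 FPKM in PC-La, and 60.99 and 68.4 FPKM in SePC-La (0.37, SE 0.12, limma adjusted p = 0.38). Both genes were highest in the SePC-La tumors with no overlap. The core proteins of the complex were not called: Uqcrc1 had a log2 fold change of 0.24 and Uqcrc2 of 0.07.

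Complex IV held 2 calls among 14 nuclear genes tested (14.3%, background 4.9% higher). These were Cox5b (0.37, limma adjusted p = 0.38) and Cox8a (0.35, limma adjusted p = 0.39), both structural subunits of cytochrome c oxidase. Cox5b was listed at 50.9 and 50.5 FPKM in Laser, 55.0 and 52.6 FPKM in PC-La, and 63.3 and 68.3 FPKM in SePC-La. Its pseudogene Cox5b-ps was called as well (0.36, limma adjusted p = 0.38), and since 21.3% of its 100-base windows occur unchanged in another gene, its reads are uncertain. Complex I held a single call among 37 nuclear genes (2.70%), under the background of 4.9% higher. It was Ndufa12 (0.36, limma adjusted p = 0.38), an accessory subunit listed at 29.0 and 31.6 FPKM in Laser and at 37.8 and 40.7 FPKM in SePC-La. The core subunits Ndufs1, Ndufs3, Ndufs7, Ndufs8, Ndufv1 and Ndufv2 had log2 fold changes between 0.08 and 0.26, none called.

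Complex II had no call. Sdha, the flavoprotein that oxidizes succinate, was listed at 61.7 and 57.2 FPKM in Laser, 59.7 and 59.6 FPKM in PC-La, and 49.5 and 58.0 FPKM in SePC-La (log2 fold change against Laser -0.15, limma adjusted p = 0.65). Its iron-sulfur partner Sdhb was listed at 39.0 and 47.7 FPKM in Laser, 40.01 and 41.8 FPKM in PC-La, and 44.0 and 53.8 FPKM in SePC-La (0.17, limma adjusted p = 0.66). The membrane anchors Sdhc and Sdhd had log2 fold changes of 0.04 and 0.15. In each of the 4 genes the SePC-La and Laser tumors overlapped.

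No mitochondrial gene was called in SePC-La against Laser. Of the 12 tested, 2 had a log2 fold change above 0 (mt-Nd3 and mt-Co2), the median was -0.16, and the groups were apart in 2 genes, both lower in SePC-La (background 25.6%). These were mt-Nd4l, at 2.14 and 2.48 FPKM in Laser and 1.17 and 1.74 FPKM in SePC-La, and mt-Nd5, at 1079 and 1145 FPKM in Laser and 695 and 1012 FPKM in SePC-La. mt-Nd4l belongs to the genes with an identical copy. The median moved to 0.04 without the second Laser tumor and to -0.41 without the first. mt-Co1, at 12551 and 10763 FPKM in SePC-La, lay between the Laser tumors, with a log2 fold change of -0.05 (limma adjusted p = 0.94).

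SePC-La against PC-La compares the selenium-enriched with the plain phycocyanin. The paper lists less chromium, manganese and zinc in the enriched preparation, so selenium was not the only element that differed. Of the nuclear members 13 were called, all higher in SePC-La (14.4%, background 9.91% higher and 14.4% lower), and 22 with median-ratio scaling, all higher (background 13.9% and 9.99%). The median log2 fold change was 0.13, against -0.07 over all tested genes, and 65 of 90 were above 0 (background 41.5%). In 35 nuclear members both SePC-La tumors lay above both PC-La tumors and in 4 below (background 26.0% and 39.5%). No member met the criterion of an absolute log2 fold change over 1 (background 2.98%), and the smallest adjusted p was 0.13. The 12 mitochondrial genes had no call and a median of 0.16. Of them, 2 were higher in both SePC-La tumors than in both PC-La tumors (16.7%, under the background of 26.0%). These were the complex IV genes mt-Co1 and mt-Co3, and the level of mt-Co3 is uncertain because of its copy. mt-Co1 had a log2 fold change of 0.42 (SE 0.22, limma adjusted p = 0.29).

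Of the calls against PC-La, 2 were assembly factors of complex I. Ndufaf6, with the highest log2 fold change of the 13, was listed at 4.95 and 6.74 FPKM in Laser, 3.21 and 5.68 FPKM in PC-La, and 8.80 and 7.88 FPKM in SePC-La (log2 fold change against PC-La 0.81, SE 0.25, limma adjusted p = 0.14). Ndufaf4 was listed at 6.11 and 9.12 FPKM in Laser, 5.26 and 5.38 FPKM in PC-La, and 8.53 and 7.60 FPKM in SePC-La (0.52, SE 0.19, limma adjusted p = 0.18). For Ndufaf4 the PC-La tumors were below all 4 others, and the SePC-La tumors lay within the range of Laser. Uqcrq had the second highest log2 fold change, 0.69 (SE 0.17, limma adjusted p = 0.13), and the smallest p of any member in any comparison. The ATP synthase genes Atp5e (0.44, limma adjusted p = 0.16), Atp5b (0.42, limma adjusted p = 0.15) and Atp5d (0.39, limma adjusted p = 0.15) were called again, with Atp5g1 (0.37, limma adjusted p = 0.17), 1 of 3 genes for the proton-carrying ring. In complex IV the calls were Cox6a1 (0.43, limma adjusted p = 0.18), listed at 155 and 151 FPKM in PC-La and at 185 and 231 FPKM in SePC-La, Cox4i1 (0.38, limma adjusted p = 0.19) and Cox5b (0.28, limma adjusted p = 0.2). In complex I they were Ndufa10 (0.41, limma adjusted p = 0.14), Ndufv1, which binds NADH (0.38, limma adjusted p = 0.17), and Ndufa8 (0.35, limma adjusted p = 0.2). Atp5b, Atp5d, Atp5e, Cox5b and Uqcrq were called in both SePC-La comparisons, which share the SePC-La tumors.

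**Figure D3:**
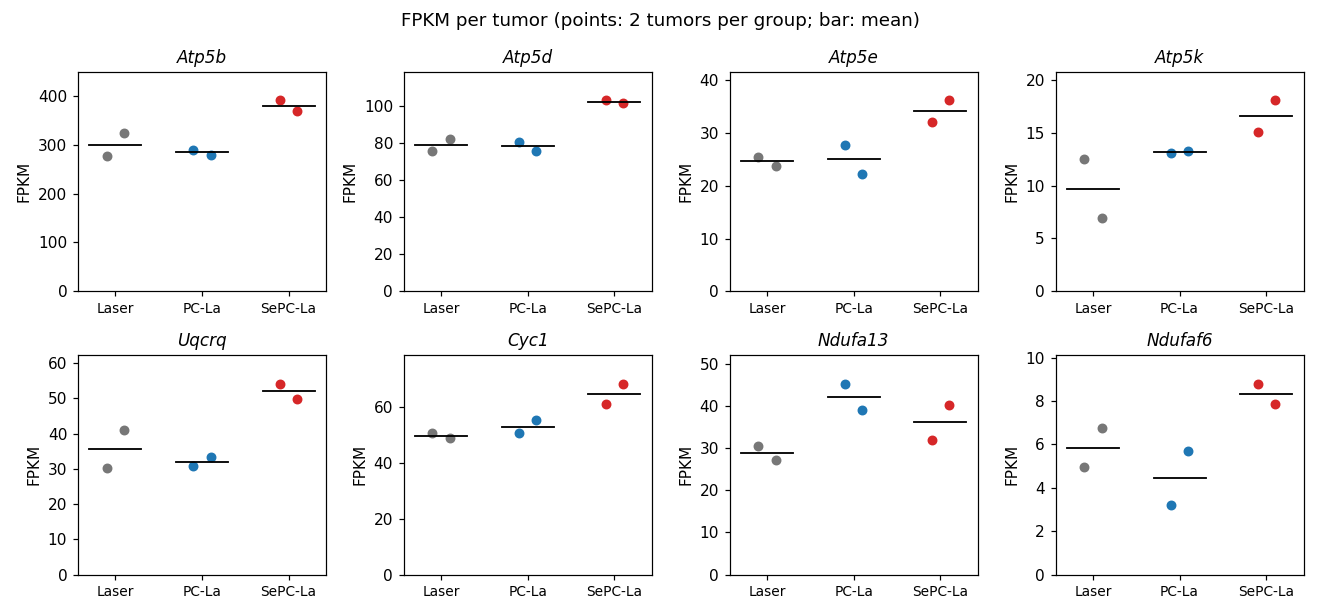
FPKM of 8 called members in each tumor (points, 2 per group) with the group mean (bar), each axis starting at 0. For Atp5b, Atp5d, Atp5e, Atp5k, Uqcrq, Cyc1 and Ndufaf6 both SePC-La points lie above the 4 others, and for Ndufa13 both PC-La points lie above both Laser points.

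Over the nuclear members, 27 of 90 (30%) had both SePC-La tumors above the 4 others, where 11.5% of all tested genes did, and none had both below (19.9%). They came from every complex except complex II. Both Laser tumors were above the 4 others in no nuclear member (background 6.25%) and below them in 13 (background 3.09%). Both PC-La tumors were above the others in 1 nuclear member, Uqcrc2 (background 14.9%), and below them in 7 (background 12.6%).

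Most of the nuclear shift came from the second SePC-La tumor. It was above the gene mean in 87 of 90 nuclear members and the highest of the 6 tumors in 68 of them (75.6%), with a median deviation of 0.24. The first SePC-La tumor had a median deviation of -0.03 and was above the gene mean in 38, and the other 4 tumors had medians between -0.10 and 0.004. The shift of the second tumor was alike across complexes, with median deviations of 0.24 in complex I, 0.17 in complex II, 0.25 in complex III, 0.26 in complex IV and 0.23 in complex V. Without this tumor the median log2 fold change of the nuclear members was 0.05 against Laser, with 2 calls, both higher, and 0.01 against PC-La, with 5 higher and 3 lower. In the same setting 3.815% of all tested genes were called higher and 7.85% lower against Laser, and 8.615% and 14.86% against PC-La, so the shares of nuclear members called higher, 2.222% and 5.556%, were under the background. Without the first SePC-La tumor the medians were 0.35 and 0.25. The mitochondrial genes moved as well: without the second SePC-La tumor 3 of the 12 were called lower in SePC-La than in Laser (median -0.40) and 2 lower than in PC-La (median -0.006). These are 25% and 16.67% of them, against the 7.85% and 14.86% of all tested genes above, so the share against PC-La was near the background.

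**Figure D4:**
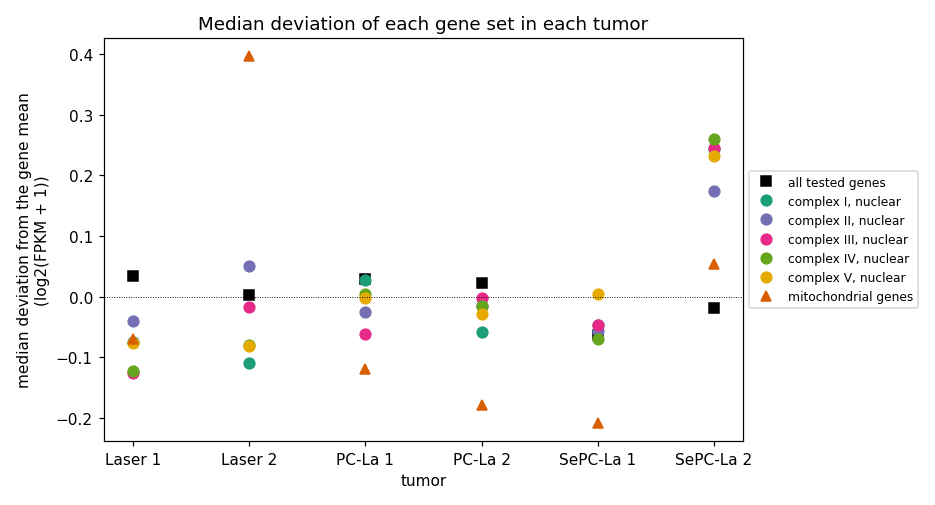
Median deviation from the mean over the 6 tumors, in log2(FPKM + 1), of the nuclear members of complexes I to V, of the mitochondrial genes and of all tested genes, for each tumor. The nuclear complexes lie between 0.17 and 0.26 in the second SePC-La tumor and near or below 0 elsewhere, and the mitochondrial genes stand at 0.40 in the second Laser tumor.

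In that tumor genes with short exons were higher in general. The merged exon length of the tested nuclear members had a median of 1631 bases, against 4444 bases over all tested genes. In the second SePC-La tumor the median deviation of all tested genes was 0.24 for exons under 1000 bases, 0.16 from 1000 to under 2000 bases, 0.06 from 2000 to under 4000 bases and -0.09 from 4000 bases. The nuclear members had 0.26, 0.23, 0.21 and 0.12 in the same classes, which held 21, 35, 23 and 11 of them, so the longer ones were above the other genes of their length. After an adjustment of each sample for exon length, which was added after the data were seen, 7 nuclear members were called higher and 1 lower in SePC-La against Laser, with a median of 0.12 (background 5.26% higher and 3.75% lower). Against PC-La 11 were called higher and 1 lower, with a median of 0.07 (background 11.7% and 10.1%). Under this adjustment the mitochondrial median in SePC-La against Laser was -0.34, with 4 genes called lower.

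**Figure D5:**
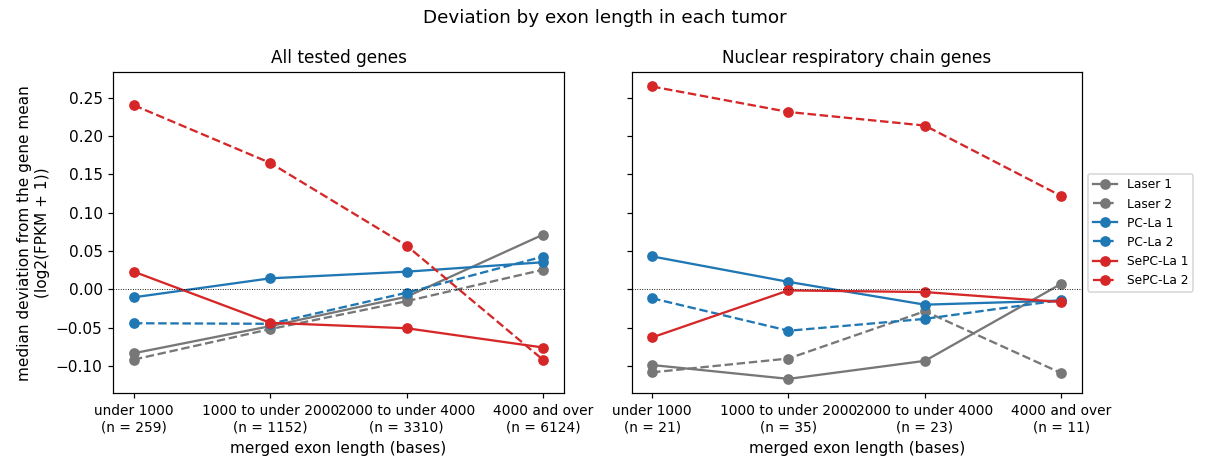
Median deviation from the gene mean, in log2(FPKM + 1), by merged exon length in bases, for all tested genes (left) and for the nuclear members (right), with 1 line per tumor. In the second SePC-La tumor the values fall from 0.24 to -0.09 over all genes and from 0.26 to 0.12 over the nuclear members.

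The second SePC-La tumor also had the highest sums for markers of neutrophils (463 FPKM, against 34.6 to 337 FPKM elsewhere), erythroid cells (933 FPKM, against 13.6 to 614 FPKM) and adipocytes (22.7 FPKM, against 1.65 to 6.48 FPKM). Its sums for macrophages (734 FPKM, against 391 to 959 FPKM), fibroblasts and mural cells (639 FPKM, against 125 to 1724 FPKM), T cells (12.4 FPKM, against 3.97 to 13.7 FPKM) and endothelium (36.7 FPKM, against 26.7 to 44.9 FPKM) lay within the range of the others. The sum for epithelial keratins and adhesion genes was 277 FPKM, against 189 to 264 FPKM. The part of these cell types and of exon length in the nuclear shift was not tested beyond the values above.

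Summed over genes, the mitochondrial FPKM exceeded the nuclear FPKM of the chain in every tumor. The Laser tumors had ratios of 5.41 and 7.22 (mean 6.31 ± 1.28, SD, n = 2). Those of PC-La were 4.75 and 4.67 (4.71 ± 0.06) and those of SePC-La 5.08 and 4.72 (4.90 ± 0.26). Both Laser tumors lay above the other 4, and PC-La and SePC-La differed by less than the spread of the SePC-La tumors. With 2 samples a group an exact test cannot reach p under 0.05, so none was run. As listed, mt-Co1 was the largest part of the mitochondrial sum, and the low genes with copies of nearly their full length added little. The levels of these low genes, and in part those of mt-Co1 and mt-Nd4, are uncertain as given above. The ratios share that uncertainty.

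Counting could mix some members with other genes: 35 of the 98 nuclear rows share exon bases with another gene and 23 have a 100-base window that occurs elsewhere. The 60 tested nuclear members with under 5% of either had 8 called higher and 0 lower in SePC-La against Laser (limma, median 0.19, background 4.9% higher and 7.24% lower) and 11 higher and 0 lower against PC-La (median 0.13, background 9.91% and 14.4%).

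Promoters of nuclear chain genes are known for binding sites of NRF1, of the ETS factor GABP (also called NRF2), of Sp1 and of YY1. RefSeq promoters on GRCm38.p6, from 250 bases before to 30 bases after the start, were matched to 77 of the 97 nuclear symbols and searched on both strands. The NRF1 core motif GCGCATGCG was in 11.7% of them (Atp5g2, Atp5k, Atp5l, Cox6a1, Ndufa11, Ndufa8, Ndufaf4, Ndufaf5 and Uqcr11), against 1.71% of all 27025 promoters. The ETS motif CCGGAAG was in 23.4% against 8.74%, the Sp1 motif GGGCGG (GC box) in 44.2% against 35.02%, and the YY1 core motif AAGATGGCG in 1.299% (Ndufaf8) against 1.08%. The motifs do not contain one another. The 27025 promoters were taken whatever the expression of their genes, whereas most nuclear members were expressed here. The shares therefore do not compare the members with other expressed genes. Of 4 members called in a SePC-La comparison and holding a motif, the promoters are printed to show how the motifs lie, with motif matches on either strand in capitals.
Atp5b (chr10:128083057-128083336, plus strand): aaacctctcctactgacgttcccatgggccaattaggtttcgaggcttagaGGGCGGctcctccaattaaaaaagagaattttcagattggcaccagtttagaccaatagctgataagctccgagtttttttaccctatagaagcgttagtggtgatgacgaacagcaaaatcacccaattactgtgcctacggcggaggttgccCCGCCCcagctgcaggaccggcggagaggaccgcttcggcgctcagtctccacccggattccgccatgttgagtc
Atp5e (chr2:174464072-174464351, minus strand): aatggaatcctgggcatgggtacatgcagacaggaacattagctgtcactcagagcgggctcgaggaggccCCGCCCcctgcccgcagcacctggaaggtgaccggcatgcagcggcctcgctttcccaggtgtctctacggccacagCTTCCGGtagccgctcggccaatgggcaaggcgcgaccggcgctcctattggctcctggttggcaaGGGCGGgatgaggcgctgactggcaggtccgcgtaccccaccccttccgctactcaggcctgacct
Atp5k (chr5:108434370-108434649, minus strand): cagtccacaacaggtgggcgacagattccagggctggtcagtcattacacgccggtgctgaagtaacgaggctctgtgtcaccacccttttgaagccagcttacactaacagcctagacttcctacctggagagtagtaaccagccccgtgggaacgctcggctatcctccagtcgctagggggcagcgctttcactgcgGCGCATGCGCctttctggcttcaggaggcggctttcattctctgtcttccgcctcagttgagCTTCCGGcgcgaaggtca
Cox6a1 (chr5:115348929-115349208, minus strand): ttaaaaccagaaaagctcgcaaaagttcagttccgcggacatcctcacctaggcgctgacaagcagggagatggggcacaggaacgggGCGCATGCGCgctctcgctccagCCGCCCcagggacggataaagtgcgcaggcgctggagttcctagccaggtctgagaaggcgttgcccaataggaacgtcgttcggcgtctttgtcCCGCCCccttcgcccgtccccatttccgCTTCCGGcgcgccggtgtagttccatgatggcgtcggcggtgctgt
Atp5b held GC boxes only, Atp5e an ETS motif and GC boxes, Atp5k an NRF1 and an ETS motif, and Cox6a1 all 3 kinds. A match is a description of the sequence and was not tied to the expression values.

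Other genes serve the chain without being subunits. Of 29 tested genes for cytochrome c and for assembly, 1 was called in SePC-La against Laser, Cycs, which encodes cytochrome c (log2 fold change 0.30, limma adjusted p = 0.4), where 4.9% of all tested genes were called higher. In PC-La against Laser, Cox18 (-0.51, limma adjusted p = 0.68) and Ecsit (-0.39, limma adjusted p = 0.75) were called lower and Tmem126b (0.40, limma adjusted p = 0.75) higher, with a background of 2.4% lower and 3.38% higher. The same 3 genes were called with the opposite sign in SePC-La against PC-La (background 9.91% higher and 14.4% lower), comparisons that share the PC-La tumors. Cox18 inserts a mitochondrially made subunit of complex IV, and Ecsit and Tmem126b assemble complex I. Cox18 was listed at 5.63 and 6.08 FPKM in Laser, 3.97 and 3.67 FPKM in PC-La, and 7.46 and 6.38 FPKM in SePC-La. The median of the 29 genes lay between -0.04 and 0.05 in the 3 comparisons.

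Of 17 tested genes for mitochondrial transcription and biogenesis, Lrpprc, which stabilizes mitochondrial mRNAs, was the only call (0.63 in SePC-La against PC-La, limma adjusted p = 0.15, background 9.91% higher). It was listed at 14.6 and 19.3 FPKM in Laser, 11.5 and 13.2 FPKM in PC-La, and 22.6 and 17.0 FPKM in SePC-La. Tfam, the main transcription factor of the mitochondrial genome, had log2 fold changes of -0.15, 0.23 and 0.37 in PC-La against Laser, SePC-La against Laser and SePC-La against PC-La, none called. Of 16 genes of the TCA cycle and pyruvate dehydrogenase, which feed the chain with electrons, Dlst was called lower in PC-La against Laser (-0.33, limma adjusted p = 0.75, background 2.4%) and Mdh2, malate dehydrogenase, higher in SePC-La against Laser (0.38, limma adjusted p = 0.38, background 4.9%). In SePC-La against PC-La 4 of the 16 were called, all higher (25%, background 9.91% higher and 14.4% lower): Mdh2 (0.56, limma adjusted p = 0.13), Dlst (0.42, limma adjusted p = 0.15), Idh3g (0.41, limma adjusted p = 0.17) and Cs, citrate synthase (0.39, limma adjusted p = 0.19). Their median was 0.21 in that comparison and -0.15 in PC-La against Laser.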

How the data were processed

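Gene expression was measured by RNA sequencing of 6 mouse tumors in 3 groups of 2. The authors deposited 1 table of FPKM values. The unit is named neither there nor in the paper and was worked out here: each value times the merged exon length of its gene in GENCODE M21 (GRCm38) came to whole reads (tolerance 0.02) for 97.8% of the expressed genes in all 6 samples, with totals from 14447792 to 17649489. The authors' processing notes name HISAT2 2.0.5, HTSeq 0.9.1 and DESeq 1.30.0 with no role, and mm9, which is not the build whose lengths matched. Library strandedness is not given in the sources used here.

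Groups were compared on the log2 scale, as log2(FPKM + 1) of the deposited values, by limma 3.58.1 (R 4.3.3) for genes averaging 1 FPKM or more, with 1 mean per group over all 6 samples, trend and robust moderation (median 6.4 degrees of freedom). The authors screened genes with DESeq, which needs counts. P-values were adjusted by Benjamini-Hochberg over all 10853 genes. The script was tested on simulated data. Members and lists were chosen with earlier results of these data known. Named genes were all mitochondrial and complex II genes, the complex IV isoform pairs, the highest gene of each complex, up to 5 highest and 5 lowest called nuclear genes per comparison, and called genes of other lists, up to 4 per comparison. Other genes were named after their values were seen. An item that the rule would name is not reported here. The marker lists were 15 genes for muscle, 5 for keratins and adhesion, and 8 for each other cell type. Identical copies were found as 100-base windows of exon sequence. Alternatives are given in the closing section. Other steps used Python 3.11.15 with pandas 2.3.3, NumPy 2.4.6 and matplotlib 3.10.9.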

Additional observations from a re-analysis of the deposited data

How the results depend on the processing

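The 2 members called in PC-La against Laser became 1 with a minimum mean of 5 FPKM, with no filter and with voom, and 4 with the exon length adjustment. Of all tested genes, 2.937% to 3.836% were called higher and 2.001% to 2.443% lower in these settings. The 10 called in SePC-La against Laser became 21 with median-ratio scaling (background 7.48% higher and 4.234% lower). They became 3 with only the 4 samples compared (background 2.875% higher and 3.575% lower). The 13 called in SePC-La against PC-La became 22 with median-ratio scaling (background 13.94% higher and 9.989% lower). The nuclear median in PC-La against Laser was 0.03018 with median-ratio scaling and 0.03146 with the length adjustment. The mitochondrial median in SePC-La against PC-La was 0.0 with quantile normalization and 0.01939 with the length adjustment. The ratio of mitochondrial to nuclear levels, taken from medians over members in place of sums, was 22.3 for Laser, 21.24 for PC-La and 18.58 for SePC-La, and that of PC-La without mt-Atp8, mt-Nd4l and mt-Nd6 was 4.556. The log2 fold change of mt-Co1 in SePC-La against Laser turned to 0.03635 with median-ratio scaling. The cause of these moves was not tested. For these counts, for the medians over all nuclear and all mitochondrial members and for these ratios, the other alternatives stayed within 1.5 times or within the spread between replicates. Against Laser, Atp5b, Atp5d and Cyc1 lost their call with quantile normalization and with only the 4 samples compared, and Atp5k with the length adjustment. Against PC-La, Atp5b and Atp5d lost it with quantile normalization and Cox6a1 with the length adjustment. In PC-La against Laser, Cox6a2 lost it with no filter, voom, quantile normalization and only the 4 samples. Adjusted limma p was under 0.05 in SePC-La against PC-La for 637 genes with only the 4 samples compared, 1 of them a nuclear member. It was so for 8 genes with quantile normalization, 6 with median-ratio scaling and 3 with a minimum mean of 5 FPKM, none of them members. Some fits with 1 tumor left out also gave such genes and are not counted here.

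Leaving out 1 tumor leaves its group with a single sample, assumed to vary like the others. The counts then ranged from 0 (without the first PC-La tumor) to 14 (without the first Laser tumor) in PC-La against Laser, from 3 (without either PC-La tumor) to 26 (without the first SePC-La tumor) in SePC-La against Laser, and from 2 (without the second PC-La tumor) to 18 (without either Laser tumor) in SePC-La against PC-La. In the same order, the nuclear medians ranged from 0.04027 to 0.07488, from 0.04835 to 0.3451 and from 0.01371 to 0.2493. The mitochondrial medians ranged from -0.5303 to -0.1044, from -0.4137 to 0.03733 and from -0.006192 to 0.2377. The ratios ranged from 5.409 to 7.216 for Laser, 4.667 to 4.747 for PC-La and 4.717 to 5.08 for SePC-La. For mt-Co1, the log2 fold change in SePC-La against Laser ranged from -0.3441 to 0.2536 (0.06563 without the second SePC-La tumor). Of the calls recomputed with each tumor left out, that of Uqcrq against PC-La held each time, with log2 fold changes from 0.6268 to 0.7441. Those of Uqcrq against Laser (0.491 without the first SePC-La tumor), Ndufa13, Cox6a2, Atp5b, Atp5d, Atp5e, Atp5k, Cyc1, Ndufaf4, Ndufaf6 and Cox6a1 lost p under 0.05 in at least 1 case, with their direction kept.

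Whether the replicate numbers pair the tumors could not be settled. Deviations of same-numbered tumors correlated at 0.0862 (Laser and PC-La), -0.4278 (Laser and SePC-La) and -0.1767 (PC-La and SePC-La) across genes. With 2 tumors a group, each correlation rests on 1 difference per group and cannot decide it. With the replicate number as a block, 2, 7 and 9 members were called in the 3 comparisons, all counts within 1.5 times. The 7 and the 9 were all called higher. In the same order of comparisons, 2.386%, 3.612% and 7.869% of all tested genes were called higher. Called lower were 1.778%, 5.031% and 10.8%. Among the genes recomputed, the block ended 1 call, that of Atp5b against Laser.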
